A study of Mus musculus with 8 samples.

Results

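The secreted Wnt ligands of the embryonic mouse molar were followed over 8 Affymetrix arrays. The members were all probe sets that the platform annotation, of 2016, names with exactly 1 of the genes Wnt3, Wnt4, Wnt5a, Wnt6, Wnt7b, Wnt10a, Wnt10b and Wnt11. These were 14 of the 45101 probe sets on the array, covering 8 of 18193 genes with a probe set of their own. Wnt3, Wnt4, Wnt6, Wnt7b, Wnt10a and Wnt10b (9 probe sets) were taken as ligands of the dental and oral epithelium, and Wnt5a and Wnt11 (5 probe sets) as ligands of the mesenchyme.

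Each array held RNA of mandibular molar tooth germs from embryos of ICR mice, an outbred stock, and the labels name no engineered allele. The mothers were injected once into the abdomen on embryonic day 14, and the tooth germs were taken 24 hours later. In 2 arrays the injection was 5E1, an IgG1 antibody that binds Sonic hedgehog (Shh), at 10 mg/kg, and in 2 it was 40-1a, an IgG1 antibody against the bacterial enzyme β-galactosidase, at the same dose. Cyclopamine, an inhibitor of the Hedgehog transducer Smoothened (Smo), was given at 10 mg/kg for 2 arrays, and PBS, in a volume of 1 ml, for the last 2. Both members of a group are labelled biological replicates, but the labels do not say whether litters were shared, so p-values measure only the spread between these samples. The mother, not the embryo, received the agent, and the vehicle of cyclopamine is not stated in the labels.

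Wnt proteins are lipid-modified signals that act over short distances. The acyltransferase Porcn attaches the lipid and the carrier Wls brings the protein to the cell surface, where Frizzled receptors with Lrp5 or Lrp6 pass the signal to β-catenin. Other ligands, Wnt5a and Wnt11 among them, often act without β-catenin through receptors such as Ror2. In the molar at the cap stage, the enamel knot, a signalling centre of the epithelium, produces Shh and several Wnts, and the mesenchyme below responds to both. The arrays allow the question whether an antibody against Shh or an inhibitor of Smo came with changed levels of these ligands within 24 hours.

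No Wnt ligand passed the test in any comparison of injections. The epithelial ligands Wnt4, Wnt6, Wnt7b and Wnt10a were high together, and Wnt5a low, on the second replicates of 5E1, 40-1a and cyclopamine. No PBS array was among these. Wnt10b and Wnt11 did not follow that pattern. Of the 7 ligands tested, Wnt10b was 1.80-fold higher on average after 5E1 than after 40-1a, Wnt4 was 2.11-fold higher and Wnt5a 1.77-fold lower on average after cyclopamine than after PBS, and the 95% interval of each of these differences spanned 0 in a fit over all 8 arrays.

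Promoter sequences are shown for Wnt4 and Wnt6, which were high and low on the same arrays, and for Wnt11, which did not follow them. They are the 250 bases before an annotated start, from RefSeq on the mouse build GRCm38.p6, written 5′ to 3′ on the strand of the gene. Windows were also matched for Wnt3 and Wnt10b, so that 5 of the 8 ligands had one. Wnt5a, Wnt7b and Wnt10a had no entry in the table used here. Capitals mark CCACCC, the core letters of the binding site of the Hedgehog-controlled Gli factors, or CTTTGA, the core of the site of the β-catenin partners TCF and LEF, on either strand (GGGTGG and TCAAAG on the opposite strand). The Wnt4 window is chr4:137277385-137277634 on the plus strand, the Wnt6 window chr1:74771642-74771891 on the plus strand, and the first of 2 Wnt11 windows chr7:98834862-98835111 on the plus strand.
Wnt4: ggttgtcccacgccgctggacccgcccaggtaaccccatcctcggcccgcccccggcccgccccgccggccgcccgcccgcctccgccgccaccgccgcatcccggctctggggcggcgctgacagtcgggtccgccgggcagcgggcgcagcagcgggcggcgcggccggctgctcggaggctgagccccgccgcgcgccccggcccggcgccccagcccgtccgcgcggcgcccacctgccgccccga
Wnt6: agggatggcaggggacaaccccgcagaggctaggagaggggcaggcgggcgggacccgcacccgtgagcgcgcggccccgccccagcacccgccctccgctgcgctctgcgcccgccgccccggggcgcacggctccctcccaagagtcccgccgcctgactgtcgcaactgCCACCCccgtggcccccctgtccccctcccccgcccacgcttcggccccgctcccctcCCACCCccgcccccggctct
Wnt11: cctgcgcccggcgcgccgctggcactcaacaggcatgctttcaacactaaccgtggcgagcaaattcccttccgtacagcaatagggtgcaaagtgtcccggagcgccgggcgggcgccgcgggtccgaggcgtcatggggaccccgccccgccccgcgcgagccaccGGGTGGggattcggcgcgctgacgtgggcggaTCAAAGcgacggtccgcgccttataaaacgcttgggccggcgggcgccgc

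The Wnt4 window held neither core. The Wnt6 window held CCACCC at 78 and 20 bases before the start, counted to the first base of the match. The first Wnt11 window held GGGTGG 82 bases and TCAAAG 50 bases before the start, and the second Wnt11 window held neither core. The Wnt3 window held 1 copy of GGGTGG and the Wnt10b window 3 copies, of which the last pair share letters. The fuller Gli site GACCACCCA, which contains the core, was in none of the members' windows and in 0.225% of 32851 windows of the same length over all genes. The core CCACCC was in 28.1% of those windows and CTTTGA in 13.8%. The windows of the ligands were rich in G and C, with 85.2% for Wnt4, 79.6% for Wnt6, 70.8% for the first and 56.8% for the second Wnt11 window and 66.8% for Wnt10b, against a median of 52.4% over all windows. A match of these letters describes the window and does not show binding. Wnt6 and Wnt10a are neighbours on chromosome 1, with 6697 bases between their records on GRCm38.p6.

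The tissue and the blockade were checked first. Of 14 markers of dental epithelium 13 were measured, with a lowest signal of 545 on any array, and of 15 markers of dental mesenchyme 14 were measured, with a lowest signal of 342. The summed signal of the 14 skeletal muscle markers differed 9.57-fold between arrays, with the highest values on 1 cyclopamine array (17020) and 1 array of 40-1a (14726). The mean signal of the probe sets for 18S ribosomal RNA was 2548 on cyclopamine replicate 1 and at most 448 on the other arrays. Ptch1, the receptor of Shh and itself induced by Hedgehog signalling, gave 2122 and 1553 after 5E1, against 11322 and 7180 after 40-1a (signal; log2 difference -2.31, SE 0.30). Its limma p-value was 7.45e-05 before and 0.969 after Benjamini-Hochberg adjustment over the 13008 genes tested, so the difference did not pass the threshold of 0.05. Gli1, a Hedgehog-responsive transcription factor, differed by -2.22 and Hhip, a feedback inhibitor, by -1.58 on the log2 scale in the same comparison. After cyclopamine the differences from PBS were -0.27 for Ptch1 (SE 0.30, limma p-value 0.403), 0.08 for Gli1 (SE 0.40, 0.843) and -0.63 for Hhip (SE 0.46, 0.214). The cyclopamine and PBS arrays overlapped for each of these genes. Gli1 had a signal of 2157 and 1193 after cyclopamine, against 1070 and 2143 after PBS. The check therefore showed no clear Hedgehog blockade on the cyclopamine arrays.

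The arrays fell into 3 clusters over all genes tested, and these cut across the injections. Cluster 1 held replicate 1 of 5E1, of 40-1a and of PBS. Cluster 2 held replicate 2 of 5E1, of 40-1a and of cyclopamine. Cluster 3 held replicate 1 of cyclopamine and replicate 2 of PBS. Correlations across genes were 0.977 to 0.984 for pairs of arrays within a cluster and 0.946 to 0.970 for the pairs of the same injection. No label names a batch, so the clusters are a description of the values.

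Among the epithelial ligands, Wnt4, made in oral and dental epithelium, had a signal of 1472 and 3583 after 5E1, 1428 and 3983 after 40-1a, 2900 and 4498 after cyclopamine, and 1368 and 2140 after PBS (replicates 1 and 2). The 3 arrays of cluster 2 were the 3 highest. The arrays of 5E1 and 40-1a covered nearly the same range, and both cyclopamine arrays lay above both PBS arrays. The second probe set of Wnt4 ranged between 931 and 1942 and was also higher on the second replicate in 4 of 4 groups.

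Wnt6, expressed widely in surface and dental epithelium, had a signal of 693 and 1492 after 5E1, 815 and 1335 after 40-1a, 1121 and 1355 after cyclopamine, and 666 and 1126 after PBS. All groups overlapped. Its second probe set, which can hybridise with related transcripts, ranged between 110.2 and 413.

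Wnt7b, known from mouse oral ectoderm as an antagonist of Shh expression when the tooth field is set, had a signal of 666 and 1178 after 5E1, 708 and 1429 after 40-1a, 959 and 1577 after cyclopamine, and 709 and 1117 after PBS. The spread inside each group was larger than the distance between the group means. Its second probe set had 102.9 on cyclopamine replicate 1, the lowest value, and 715 on 40-1a replicate 2, the highest.

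Wnt10a, a ligand of the enamel knot and later of odontoblasts whose loss in people causes missing teeth, had a signal of 1078 and 2235 after 5E1, 758 and 1657 after 40-1a, 1212 and 1615 after cyclopamine, and 804 and 1247 after PBS. Within each replicate number the 5E1 array lay above the 40-1a array, but the groups overlapped.

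Wnt10b, an early ligand of the dental placode and the enamel knot, had a signal of 129.7 and 283 after 5E1, 117.4 and 89.4 after 40-1a, 113.0 and 167.0 after cyclopamine, and 108.9 and 214 after PBS. Both 5E1 arrays lay above both 40-1a arrays, while the arrays of cyclopamine and PBS overlapped.

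Wnt3, a β-catenin-activating ligand of the dental epithelium, had a single probe set, of a type that can hybridise with related transcripts, and was below the level filter (a signal of 60.3) on all 8 arrays, so it was not tested. Its signal was 40.4 and 38.5 after 5E1, 3.06 and 3.40 after 40-1a, 39.6 and 36.9 after cyclopamine, and 27.4 and 35.1 after PBS. Both 40-1a arrays lay far below the other 6 and under the pseudocount of 9. At signals this low MAS5 values carry large errors. Without the level filter the difference between 5E1 and 40-1a was 1.99 on the log2 scale (SE 0.39, limma p-value 0.000977, adjusted p = 1.00 over 18193 genes), and the value depends on the pseudocount, being 3.26 with 1 and 1.02 with 32 in place of 9. The reference record of Wnt3 overlaps that of Wnt9b on chromosome 11 of GRCm38.p6. The sequences of the probes were not used here.

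Of the mesenchymal ligands, Wnt5a, which guides growth of the dental papilla mostly without β-catenin, had a signal of 1818 and 824 after 5E1, 2035 and 1255 after 40-1a, 1753 and 854 after cyclopamine, and 2254 and 2101 after PBS. The 3 arrays of cluster 2 were the 3 lowest. Both cyclopamine arrays lay below both PBS arrays, while 5E1 and 40-1a overlapped. The lowest value of each of its other 3 probe sets also lay within cluster 2. On the dimmest of them, however, PBS replicate 2 (75.0) lay below 5E1 replicate 2 (95.8).

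Wnt11, which in other tissues directs cell movement without β-catenin, had a signal of 430 and 625 after 5E1, 511 and 518 after 40-1a, 569 and 508 after cyclopamine, and 725 and 512 after PBS. All groups overlapped, and 6 of the 8 arrays lay between 508 and 625.

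**Figure D1:**
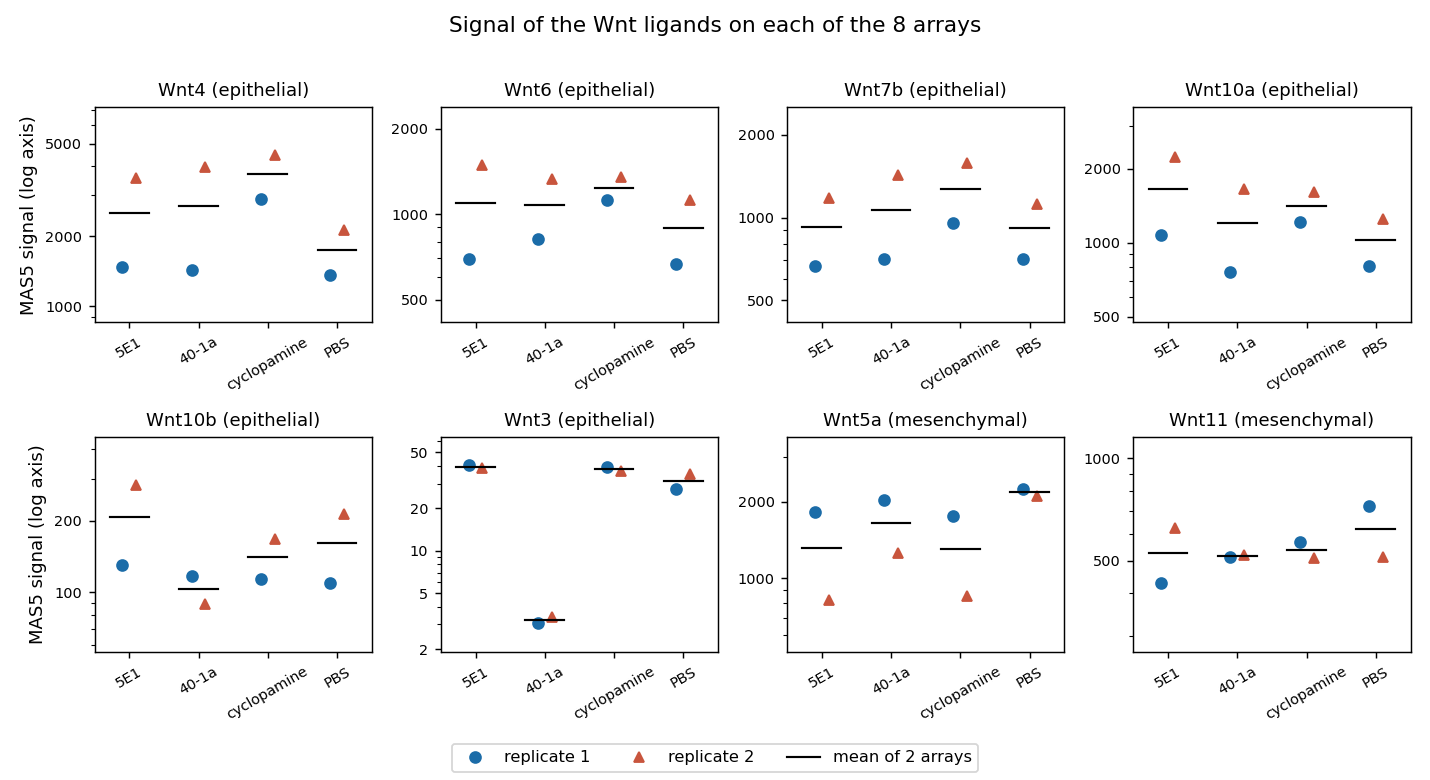
MAS5 signal (log axis, arbitrary units) of the 8 Wnt ligands in the 4 injection groups, with a circle for replicate 1, a triangle for replicate 2 and a line for the mean of the 2 arrays. Replicate 2 lies above replicate 1 in 4 of 4 groups for Wnt4, Wnt6, Wnt7b and Wnt10a and below it in 4 of 4 for Wnt5a, and both 40-1a arrays are the lowest for Wnt3.

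Blocking Shh with 5E1 was compared with the isotype control 40-1a. Of the 7 ligands tested 0 passed, as did 0% of the 13008 genes. In this fit, over all 8 arrays and with no block, at an unadjusted p under 0.05 there were 0 ligands and 159 genes, 1.22% of all. On the scale of log2(signal + 9), which understates changes of dim genes, Wnt10b differed by 0.85 (SE 0.47, 95% interval -0.23 to 1.93, limma p-value 0.107, adjusted p = 1.00). It was the only tested ligand whose arrays did not overlap, which was true in the same direction of 8.66% of all genes. The value rested largely on 5E1 replicate 2, and was 0.31 without that array and 1.39 without 5E1 replicate 1. Wnt10a differed by 0.47 (SE 0.46, interval -0.59 to 1.52, adjusted p = 1.00), and by -0.06 without 5E1 replicate 2 or -0.09 without 40-1a replicate 1. The log2 differences of Wnt4 (-0.05), Wnt6 (-0.04) and Wnt11 (0.01) were close to 0. Their 95% intervals were -1.36 to 1.25 for Wnt4, -0.999 to 0.928 for Wnt6 and -0.58 to 0.60 for Wnt11. Differences inside these bounds were not excluded with 2 arrays a group. The intervals are not adjusted over genes and are not limits of detection, since Ptch1 at -2.31 did not pass either. Wnt7b differed by -0.18 (SE 0.44) and Wnt5a by -0.38 (SE 0.45). Of the 5 epithelial ligands tested 2 were higher and 3 lower on average, with a median of -0.04, and of the 2 mesenchymal ligands 1 was higher and 1 lower. Over all genes the median was -0.01 and 46.7% were higher on average.

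Cyclopamine was compared with PBS. Again 0 of 7 ligands and 0% of genes passed, and at an unadjusted p under 0.05 in the same fit there were 0 ligands and 205 genes, 1.58% of all. Wnt4 differed by 1.07 on the log2 scale (SE 0.56, interval -0.23 to 2.37, limma p-value 0.0930, adjusted p = 0.983). Fitted on these 4 arrays alone, it had a limma p-value of 0.00478 and Wnt5a one of 0.0294, each with an adjusted p of 0.972. Wnt5a differed by -0.83 (SE 0.45, interval -1.87 to 0.22, limma p-value 0.105, adjusted p = 0.983), and by -0.31 without cyclopamine replicate 2 or -1.34 without cyclopamine replicate 1. The arrays of these 2 ligands did not overlap, Wnt4 being higher and Wnt5a lower, as was true of 17.8% of all genes in the higher direction and 14.4% in the lower. Wnt6 (0.50, SE 0.42), Wnt10a (0.48, SE 0.46) and Wnt7b (0.46, SE 0.44) were higher on average with overlapping arrays. Without PBS replicate 1 the values of Wnt6 and Wnt10a were 0.13 and 0.16, and without PBS replicate 2 they were 0.88 and 0.79. Wnt7b was at 0.11 without cyclopamine replicate 2 and 0.82 without cyclopamine replicate 1, and its second probe set gave -0.32. Wnt10b (-0.15, SE 0.47) and Wnt11 (-0.18, SE 0.25) were slightly lower on average. Of the 5 epithelial ligands 4 were higher, Wnt7b among them by its brighter probe set (0.074 as the mean of both), with a median log2 difference of 0.48, and both mesenchymal ligands were lower, with a median of -0.50, while over all genes the median was 0.02. The PBS arrays lay in clusters 1 and 3 and the cyclopamine arrays in clusters 2 and 3.

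**Figure D2:**
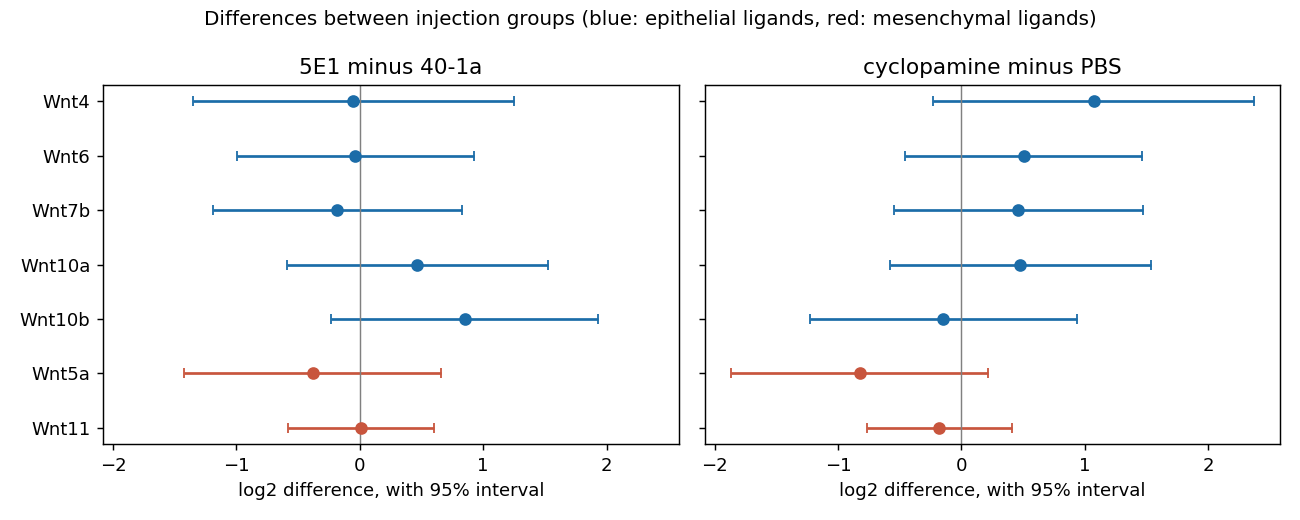
Log2 difference of each tested ligand, as 5E1 minus 40-1a (left) and cyclopamine minus PBS (right), from the fit over all 8 arrays, with bars for the 95% interval. Every interval spans 0, with Wnt10b at 0.85 the farthest from 0 on the left and Wnt4 at 1.07 and Wnt5a at -0.83 the farthest on the right.

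With 5E1 and cyclopamine together set against both controls, the log2 difference was -0.60 for Wnt5a (SE 0.32, limma p-value 0.0952), 0.51 for Wnt4 (SE 0.40) and 0.47 for Wnt10a (SE 0.32), and the other 4 ligands lay between -0.08 and 0.35. Every adjusted p was 1.00. Single arrays moved these values, Wnt4 to 0.14 without 40-1a replicate 1 and 0.88 without 40-1a replicate 2, Wnt10a to 0.19 and 0.75 without the same arrays, and Wnt5a to -0.89 without 5E1 replicate 1 and -0.32 without 5E1 replicate 2. This comparison uses the same 8 arrays as the preceding pair and adds no independent samples. Since Ptch1, Gli1 and Hhip showed no clear fall after cyclopamine, the pooled values cannot be read as a Hedgehog blockade by both agents. Whether cyclopamine blocked the pathway was not settled with 2 arrays a group. The test of whether the antibody effect differed from the cyclopamine effect gave -1.13 for Wnt4 (SE 0.79) and 1.00 for Wnt10b (SE 0.66), with every adjusted p at 1.00. Wnt4 was at -1.87 without 40-1a replicate 1 and -0.39 without 40-1a replicate 2, and Wnt10b at 0.46 without 5E1 replicate 2 and 1.53 without 5E1 replicate 1. No ligand was shown to respond differently to the 2 agents. In each of these comparisons 0 of 7 ligands and 0% of genes passed, and at an unadjusted p under 0.05 in the fit over all 8 arrays with no block there were 0 ligands, beside 1.22% of genes for the pooled comparison and 1.44% for the difference of the effects.

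Arrays of the same injection also differed from each other. The log2 difference of replicate 2 from replicate 1 was 1.28 after 5E1, 1.47 after 40-1a, 0.63 after cyclopamine and 0.64 after PBS for Wnt4. It was 0.27 to 1.10 for Wnt6, 0.65 to 1.01 for Wnt7b and 0.41 to 1.12 for Wnt10a, again positive in 4 of 4 groups. Such a direction in all 4 groups was found for 14.3% of all genes. For Wnt5a the difference was -1.13 after 5E1, -0.69 after 40-1a, -1.03 after cyclopamine and -0.10 after PBS, and 18.8% of all genes were likewise lower in all 4 groups. Wnt10b was higher on the second replicate in 3 of 4 groups and Wnt11 in 2 of 4. These differences are of the brightest probe set of each gene. The second probe sets of Wnt4 and Wnt7b were also higher in 4 of 4 groups, but that of Wnt6 in 3 of 4, with a lowest difference of -0.12. A further Wnt5a probe set was higher on the second replicate in 1 of 4 groups, by 0.11, and the remaining ones in 0 of 4. The numbers 1 and 2 have no meaning in the labels beyond naming a replicate.

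The same split showed when the arrays were grouped by cluster. Wnt4 had a signal of 3583 to 4498 in cluster 2, 2140 to 2900 in cluster 3 and 1368 to 1472 in cluster 1, with no overlap. Wnt6 had 1335 to 1492 in cluster 2, 1121 to 1126 in cluster 3 and 666 to 815 in cluster 1. Wnt7b had 1178 to 1577 in cluster 2, 959 to 1117 in cluster 3 and 666 to 709 in cluster 1. Wnt10a had 1615 to 2235 in cluster 2 and 758 to 1247 in the other clusters. Wnt5a went the other way, with 824 to 1255 in cluster 2 and 1753 to 2254 elsewhere. Wnt11 did not separate, with 508 to 625 in cluster 2 and 430 to 725 in cluster 1, nor did Wnt10b, with 89.4 to 283 in cluster 2 and 108.9 to 129.7 in cluster 1. All these ranges are of the brightest probe set of a gene. On the second probe sets of Wnt4, Wnt6 and Wnt7b, clusters 2 and 3 overlapped. Wnt4 had 1297 on 5E1 replicate 2, against 1380 on cyclopamine replicate 1. Wnt6 had 273 on cyclopamine replicate 2, against 298 on cyclopamine replicate 1. Wnt7b had 386 on 5E1 replicate 2, against 410 on PBS replicate 2. The clusters were formed from all genes tested, the ligands among them, so the ranges are a description.

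Markers of the 2 dental tissues varied over the same arrays. The mean log2 level of the 13 epithelial markers minus that of the 14 mesenchymal markers, each taken as a deviation from its mean over the 8 arrays, was 1.505 on 5E1 replicate 2, 0.78 on cyclopamine replicate 2 and 0.67 on 40-1a replicate 2, and lay between -0.65 and -0.47 on the other 5 arrays. The mean deviation of the 5 tested epithelial ligands minus that of the 2 mesenchymal ligands was -0.41 and 0.96 after 5E1, -0.68 and 0.44 after 40-1a, -0.14 and 0.96 after cyclopamine, and -1.08 and -0.06 after PBS. The 3 arrays with the highest marker balance were therefore also the 3 with the highest ligand balance. In RNA from whole tooth germs, fewer cells of a type and less RNA per cell cannot be told apart.

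The summed signal of the epithelial markers was 79908 to 126810 after 5E1, 78248 to 123025 after 40-1a, 93773 to 124798 after cyclopamine, and 76191 to 85359 after PBS. That of the mesenchymal markers was 46109 to 97999 after 5E1, 60254 to 95099 after 40-1a, 61059 to 86158 after cyclopamine, and 87084 to 92535 after PBS. No marker of either list was near 0. In cyclopamine against PBS, 12 of 13 epithelial markers were higher and 13 of 14 mesenchymal markers lower on average, none past the threshold, beside 4 of 5 epithelial ligands that were higher and 2 of 2 mesenchymal ligands that were lower. The markers of suprabasal layers of oral epithelium differed in the same direction, with 11 of 11 tested ones higher on average after cyclopamine and summed signals of 38836 to 87160 after cyclopamine, against 37710 to 41993 after PBS, while Ivl and Sprr1b of that list were below the level filter. Of the 14 skeletal muscle markers 13 were higher on average after cyclopamine. Their summed signals overlapped, with 3748 and 17020 after cyclopamine, against 6338 and 2863 after PBS (replicates 1 and 2). Over all genes tested, 53.1% were higher on average in this comparison. Of the 10 endothelial markers 8 were lower on average after cyclopamine, and their mean log2 deviation was -0.30 to 0.10 after cyclopamine, against 0.17 to 0.36 after PBS. The endothelial markers were also lowest on the arrays of cluster 2 (-0.55 to -0.25, against 0.07 to 0.40 elsewhere), as were the blood markers (-0.87 to -0.19, against -0.03 to 0.61 elsewhere). The part of the suprabasal, muscle, endothelial and blood markers in the ligand values was not tested.

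With the marker balance as a covariate, an alternative added after the data were seen, the cyclopamine difference of Wnt4 was 0.53 (SE 0.26) in place of 1.07 and that of Wnt5a -0.37 (SE 0.17) in place of -0.83. Those of Wnt6, Wnt7b and Wnt10a lay between 0.06 and 0.14. No ligand passed, and each adjusted p was 1.00. Set directly against the mesenchymal markers, the deviation of Wnt5a minus their mean was -0.29 and -0.21 on the cyclopamine arrays, against 0.05 to 0.24 on the PBS arrays, and -0.13 to 0.18 after 5E1, against 0.05 to 0.12 after 40-1a. Wnt11 minus the same marker mean ranged from -0.72 to 1.25, both extremes being 5E1 arrays.

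**Figure D3:**
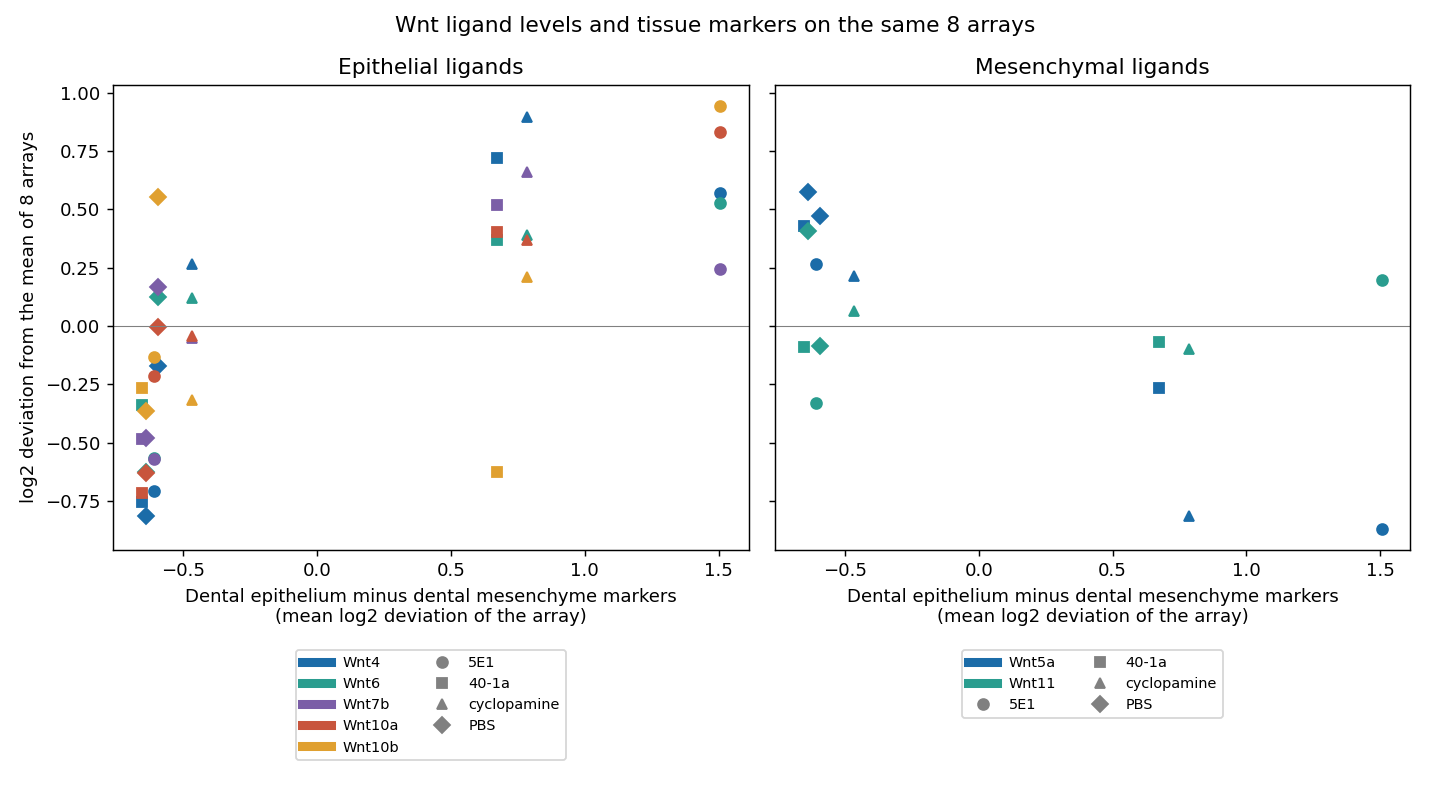
Deviation of each tested ligand from its mean over the 8 arrays (log2, vertical axis) against the balance of dental epithelium over dental mesenchyme markers on the same array (mean log2 deviation, horizontal axis), with a colour for each ligand and a symbol for each injection group. The 3 arrays with a balance of 0.67 and above carry high Wnt4, Wnt6, Wnt7b and Wnt10a and low Wnt5a, Wnt11 stays between -0.33 and 0.41, and Wnt10b on the 40-1a array of this set lies at -0.63.

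Within a cluster, arrays of different injections could be compared side by side, 1 array each and hence without a test. In cluster 1 the log2 difference of the 5E1 array from the 40-1a array was 0.50 for Wnt10a, and in cluster 2 it was 0.43. Wnt10b differed by 0.13 and 1.57, and the dim Wnt3 by 2.04 and 1.94. Wnt4 (0.04 and -0.15), Wnt6 (-0.23 and 0.16) and Wnt11 (-0.24 and 0.27) lay on opposite sides of 0 in the clusters. Wnt7b (-0.09 and -0.28) and Wnt5a (-0.16 and -0.60) were lower after 5E1 in both. Of all genes, 24.2% were higher and 27.9% lower after 5E1 in both clusters. In cluster 3 the cyclopamine array differed from the PBS array by 0.44 for Wnt4, -0.26 for Wnt5a and -0.87 for Wnt10b, while Wnt6 (-0.01) and Wnt10a (-0.04) were close to 0 and Wnt7b was at -0.22. This pair holds cyclopamine replicate 1, whose mean 18S signal was 2548, against 164 on PBS replicate 2. The part of that difference in these values was not tested.

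A fit with the clusters as a block, also added after the data were seen, gave Wnt10a a log2 difference of 0.47 between 5E1 and 40-1a with an SE of 0.11, in place of 0.46, and a limma p-value of 0.00361. Its adjusted p was 0.676, the lowest of any ligand under any setting. Wnt4 between cyclopamine and PBS was 0.40 (SE 0.12, adjusted p = 0.843). At an unadjusted limma p under 0.05 this fit had 2 of 7 ligands for 5E1 minus 40-1a and 1 for cyclopamine minus PBS. It had 2 for the pooled comparison and 2 for the difference of the effects. The share of all genes at that bound was not computed for this fit, so these counts are not a result about the ligands. The clusters come from the same values, so these p-values lean towards calls.

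**Figure D4:**
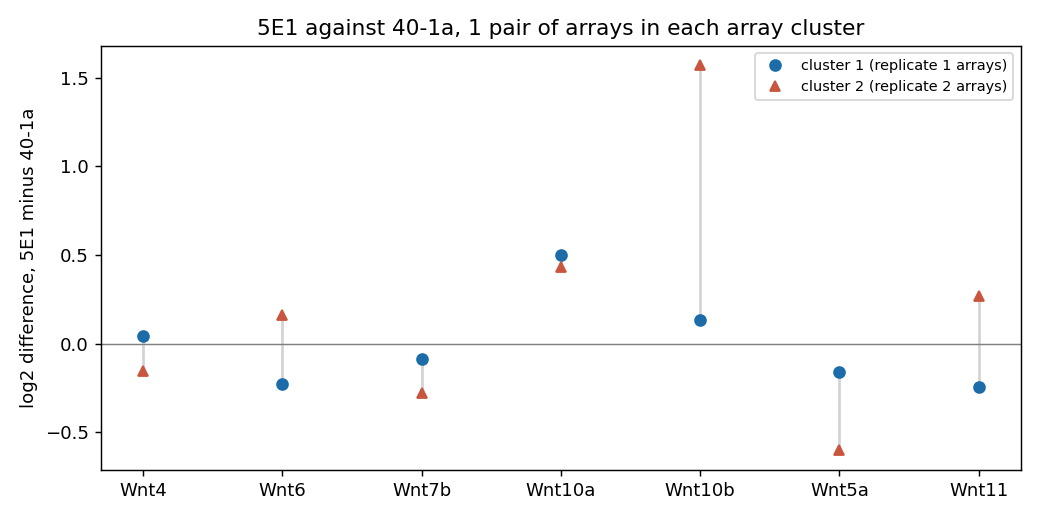
Log2 difference of the 5E1 array from the 40-1a array (vertical axis) for each tested ligand, with a circle for the pair of arrays in cluster 1 and a triangle for the pair in cluster 2. Wnt10a lies at 0.50 and 0.43, Wnt10b at 0.13 and 1.57, and Wnt4, Wnt6 and Wnt11 fall on either side of 0.

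The rest of the Wnt pathway was read from lists of its known genes. No gene of these lists passed in either comparison. Of 11 other Wnt ligands 4 were bright enough to be tested, Wnt3a, Wnt5b, Wnt7a and Wnt9a. Wnt9a, a ligand of joints and other mesenchyme, differed most, by -0.67 between 5E1 and 40-1a and by -0.39 between cyclopamine and PBS. Of the genes of acylation and release, Porcn differed by -0.46 between 5E1 and 40-1a, and Wls, the carrier of Wnts, by 0.20. Notum, which removes the lipid and silences Wnts, differed by 0.15 after 5E1 and by -0.53 after cyclopamine.

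All 16 listed receptors and co-receptors were tested. After 5E1, 7 were higher and 9 lower on average than after 40-1a, with log2 differences of -0.33 to 0.33. After cyclopamine, 8 were higher and 8 lower than after PBS, and Fzd3, a Frizzled of axon guidance and planar polarity, differed by 0.59 with a limma p-value of 0.0161 before and 0.983 after adjustment. Its signal was 1476 and 1211 after cyclopamine, against 841 and 926 after PBS. Ror2, the Wnt5a receptor, differed by 0.23 after 5E1 and -0.50 after cyclopamine, and Lrp5 by -0.11 and 1.06 (SE 0.66, limma p-value 0.148 after cyclopamine). Lrp5 had a signal of 433 and 421 after cyclopamine and 115 and 341 after PBS (replicates 1 and 2). It had 143 and 352 after 5E1 and 139 and 419 after 40-1a, so cyclopamine replicate 1 stood apart from the other first replicates. R-spondins raise the number of Frizzled receptors at the surface. Of the 9 genes listed as R-spondins and their receptors, 8 were tested. Rspo2 had a signal of 1206 and 472 after 5E1, against 1302 and 1439 after 40-1a (log2 difference -0.85, limma p-value 0.0527, adjusted p = 1.00), and its low value was that of 5E1 replicate 2.

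Of 12 listed targets of Wnt and β-catenin signalling 11 were tested. After 5E1, 7 were higher and 4 lower on average than after 40-1a, with a median log2 difference of 0.15, against -0.01 over all genes. After cyclopamine, 3 were higher and 8 lower than after PBS, with a median of -0.43, against 0.02 over all genes. Sp5, a transcription factor that β-catenin switches on directly, had a signal of 597 and 1218 after 5E1, against 451 and 605 after 40-1a, and Dkk4, a secreted inhibitor made in the enamel knot, 244 and 427 after 5E1, against 223.6 and 187.5 after 40-1a. The 5E1 value was the higher in each replicate number for both, as was true of 24.2% of all genes. The Sp5 groups overlapped, 5E1 replicate 1 lying below 40-1a replicate 2. Those of Dkk4 did not, as was true in the same direction of 8.66% of all genes. The log2 differences were 0.70 for Sp5 and 0.64 for Dkk4 (limma p-values 0.114 and 0.0826). After cyclopamine, Nkd1, an inhibitor inside the cell, differed by -1.01 and Lef1, a DNA-binding partner of β-catenin, by -0.71. Lef1 had a signal of 1208 and 880 after cyclopamine, against 1788 and 1594 after PBS (limma p-value 0.107, adjusted p = 0.983). Its arrays did not overlap, as was true in the same direction of 14.4% of all genes. The signal of Lef1 was 995, 860 and 880 on the arrays of cluster 2, where Wnt5a was lowest too.

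For each tested ligand the genes whose log2 values over the 8 arrays followed it most closely were taken from the 13007 other genes tested. Since the arrays cluster, the Pearson correlations (r) share that structure and describe likeness only. Wnt4 was followed by Zbtb4, Col17a1 and Cst3, each with r = 0.99, Col17a1 being the collagen that anchors basal epithelial cells. Wnt6 was followed by St14, an epithelial surface protease, with BC031181 and Rnf44 next, Wnt7b by Rnf167, Stat6 and Itgb1bp1, and Wnt10a by Polb, Nras and Dmac2, with r of 0.98 or 0.99. Wnt5a was followed by Crispld1, Dpyd and Apold1 (r = 0.98 to 0.99). The likeness was weaker for Wnt11, with Mboat2, Kdm1b and Scn3a at 0.96, 0.95 and 0.93. It was weakest for Wnt10b, with Rfc4 at 0.91, then Dera and Edar, the receptor of ectodysplasin in tooth and hair placodes, both at 0.90.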

How the data were processed

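RNA was measured on 8 arrays, 2 for each of 4 injection groups, taken from the labels. The authors deposited 1 intensity for each probe set, on a linear scale, and the submitters' processing notes name MAS5. MAS5 merges the probes of a set and scales every array with 1 factor; the mean trimmed by 2% at each end was 500 throughout. The sources used here give neither its version nor any batch. With 8 arrays and 4 residual degrees of freedom, the number of arrays limits precision.

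From the deposited intensity, log2(signal + 9) was computed here, 9 being the 10th percentile of all values. The probe set with the highest mean stood for a gene, and the mean of a gene had to reach the 40th percentile of the non-control probe sets (log2 6.12), which kept 13008 of 18193 genes. Of the probe sets, 34945 had 1 gene in the annotation, 932 several, 9160 none, and 64 were controls. Groups were fitted over all 8 arrays with limma 3.58.1 in R 4.3.3 (lmFit, contrasts.fit, eBayes with a trend), with Benjamini-Hochberg adjusted p-values over all genes tested and a threshold of 0.05. The script was tested on simulated data.

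The ligands, the gene lists and the tests were chosen with earlier results of these data known. Named genes are the ligands, the 3 genes most correlated with each, Ptch1, Gli1 and Hhip, and examples from the up to 4 genes of lowest p in each pathway list and comparison. Alternatives were other scalings, pseudocounts, filters, probe set rules and variance models, the compared groups alone, a replicate block and each array left out. An array cluster block, a tissue marker covariate and the pseudocounts of Wnt3 without the filter were added after the data were seen.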

Additional observations from a re-analysis of the deposited data

How the results depend on the processing

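No ligand passed under any of the settings tried, with adjusted p from 0.676 to 1.00. Leaving arrays out aside, 359 of 374 ligand values kept their direction and 15 reversed. Many of these could not reverse. Other filters or variance models, the compared groups alone, the replicate block and the fits of every probe set or without x and s sets left the differences unchanged. With an array left out, 195 values kept their direction and 29 reversed. Quantile normalisation gave Wnt10b 0.017 after cyclopamine. Median centring, which moved the median of all genes to 0.15 for cyclopamine against PBS and 0.11 for the pooled comparison, gave Wnt4 0.022 and Wnt6 0.041 after 5E1 and Wnt11 0.019 pooled. The mean of probe sets gave Wnt6 0.033 after 5E1 and Wnt7b -0.18 pooled. The array cluster block gave Wnt7b -0.037 and Wnt10a -0.058 after cyclopamine, Wnt7b -0.11 pooled, and for the antibody effect minus the cyclopamine effect 0.52 for Wnt10a and -0.036 for Wnt5a. The tissue marker covariate gave Wnt11 -0.040 after 5E1, Wnt6 -0.048 and Wnt7b -0.17 pooled, and Wnt10a 0.17 for the difference of effects. The cause of these changes was not tested. Wnt10b was not tested under the 60th percentile filter.

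Leaving out each array in turn, where the values moved only with arrays of the groups compared, the 5E1 minus 40-1a value ranged from -0.094 to 1.02 for Wnt10a, -0.25 to 0.28 for Wnt11, -0.79 to 0.68 for Wnt4, -0.95 to 0.18 for Wnt5a, -0.58 to 0.51 for Wnt6 and -0.68 to 0.32 for Wnt7b. For cyclopamine minus PBS it ranged from -0.60 to 0.31 for Wnt10b and -0.43 to 0.069 for Wnt11. For the pooled comparison it ranged from 0.084 to 0.62 for Wnt10b, -0.22 to 0.049 for Wnt11, -0.040 to 0.51 for Wnt6 and -0.11 to 0.39 for Wnt7b. For the difference of effects it ranged from -1.15 to -0.14 for Wnt7b, -0.57 to 0.55 for Wnt10a, -0.075 to 0.45 for Wnt11, -0.12 to 1.01 for Wnt5a and -1.09 to 0.0076 for Wnt6.

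Same-numbered arrays deviated from their group means with correlations of 0.00157 (cyclopamine and PBS) to 0.591 (5E1 and 40-1a), so the replicate numbers did not pair the samples throughout. With the replicate block, 1 gene was called for 5E1 minus 40-1a and 1 for the pooled comparison, Ptch1 both times, and 0 ligands. An unadjusted limma p under 0.05 was then reached by 5 of 7 ligands for cyclopamine minus PBS. These were Wnt4 (0.00132), Wnt5a (0.00852), Wnt7b (0.0146), Wnt6 (0.0345) and Wnt10a (0.0392). Each was adjusted to 0.702, which was also the lowest adjusted p of any gene in that comparison. At the same bound there were 1 ligand for 5E1 minus 40-1a, 3 pooled and 2 for the difference of effects. The share of all genes at this bound was not computed for this fit, so the counts are not a result about the ligands. The array cluster block called 3 genes for 5E1 minus 40-1a (Gli1, Ptch1 and Sostdc1, the last named after its value was seen), 2 pooled and 3 for the difference of effects, and the covariate called 1, Ptch1, for 5E1 minus 40-1a.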
